A study of Mus musculus with 3 samples.

Results

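The 6 genes examined here serve heat production in brown fat, beside its uncoupling protein Ucp1: Cidea, Dio2, Elovl3, Cox7a1, Cox8b and Adrb3. Their open chromatin sites were taken from 3 lists of DNase hypersensitive sites as those with a midpoint in 1 of 6 windows of the mouse genome build mm9, and they numbered 123 of 172496 in all. The windows ran from 67450000 to 67560000 on chromosome 18 (Cidea), from 91900000 to 92030000 on chromosome 12 (Dio2) and from 46160000 to 46260000 on chromosome 19 (Elovl3). On chromosome 7 they ran from 30920000 to 31020000 (Cox7a1) and from 148035000 to 148135000 (Cox8b), and on chromosome 8 from 28280000 to 28390000 (Adrb3).

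In DNase-seq, nuclei are treated with the enzyme DNase I, which cuts exposed DNA, and places with many sequenced ends are called as open sites. The groups were fat cells grown from brown fat (BAT, interscapular, cervical and axillary depots combined), from inguinal white fat (iWAT, under the skin) and from epididymal white fat (eWAT, in the abdomen), with 1 library each. All came from male NMRI mice aged 4 to 5 weeks whose stromal-vascular cells were differentiated in culture for 8 days with 30 nM insulin and 1 µM rosiglitazone, an activator of the fat cell regulator PPARγ. Only cultures with more than 50% differentiated cells entered, and the share of other cells in each library was not measured here. With 1 library a depot no difference below has a replicate check, and none was tested.

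Brown fat cells burn fuel to make heat, and noradrenaline switches them on through beta-adrenergic receptors and cyclic AMP. Adrb3 encodes such a receptor of brown and white fat cells. Dio2 encodes a deiodinase that turns thyroxine into the active thyroid hormone inside the cell, and cyclic AMP induces it. Elovl3 lengthens fatty acid chains, Cidea sits on lipid droplets, and Cox7a1 and Cox8b encode subunit forms of cytochrome c oxidase, the last enzyme of the respiratory chain, that are typical of heart and muscle and also mark brown fat. Open sites near a gene include promoters and enhancers. The lists name no genes, the windows also cover neighbouring genes, and no site was assigned to a gene.

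Promoter sequences of 3 of the 6 genes were matched by symbol in RefSeq's table for the build GRCm38.p6, and they show the regulatory letters at the start of a cyclic AMP target (Dio2) and of both oxidase genes. They could not be placed on the mm9 sites. Each is given as the 250 bases before the gene's start, 5′ to 3′ on the gene's strand, with motif matches in capitals. Cidea, Elovl3 and Adrb3 were not matched.
Dio2, chr12:90739039-90739288, minus strand: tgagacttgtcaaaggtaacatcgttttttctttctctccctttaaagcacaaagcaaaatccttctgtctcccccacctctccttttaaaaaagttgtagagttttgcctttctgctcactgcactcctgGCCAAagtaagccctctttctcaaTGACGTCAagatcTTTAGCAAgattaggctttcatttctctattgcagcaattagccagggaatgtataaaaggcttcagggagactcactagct
Cox8b, chr7:140900447-140900696, minus strand: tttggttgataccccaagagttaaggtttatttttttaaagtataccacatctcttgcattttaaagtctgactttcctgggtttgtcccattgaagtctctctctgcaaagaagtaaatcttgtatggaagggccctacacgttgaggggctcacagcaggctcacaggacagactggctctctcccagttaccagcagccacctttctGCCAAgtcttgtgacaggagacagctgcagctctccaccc
Cox7a1, chr7:30183921-30184170, plus strand: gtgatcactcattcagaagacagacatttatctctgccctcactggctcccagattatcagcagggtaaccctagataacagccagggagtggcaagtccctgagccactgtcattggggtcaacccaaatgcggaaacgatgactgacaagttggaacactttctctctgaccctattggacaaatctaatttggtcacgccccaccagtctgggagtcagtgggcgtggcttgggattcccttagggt

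In these letters the Dio2 promoter held the full cyclic AMP response element TGACGTCA, the sequence bound by CREB, from -95 to -88 relative to the gene's start. That motif was found in 1.55% of all 32851 promoters of the same length in the table. Its shorter core TGACG lies inside it on both strands, and 17.8% of promoters held it. A C/EBP motif, TTGCNNAA, lay on the other strand of the Dio2 promoter from -82 to -75 (9.56% of promoters). The NFI core TTGGC lay on the other strand of the Dio2 promoter from -119 to -115 and of the Cox8b promoter from -40 to -36, and 41.5% of promoters held it. No match was found in the 3 promoters to the palindromic EBF motif (0.779% of promoters), the full palindromic NFI motif (0.703%), the nuclear receptor core AGGTCA (14.0%) or its direct repeat with a spacer of 1 base (0.0335%). Nor was there a match to the ERR motif TCAAGGTCA (0.387%) or the GC box GGGCGG (32.7%). Both strands were searched, and a match describes letters only.

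Every depot listed open sites in every window, and in similar numbers: 40 in BAT, 41 in iWAT and 42 in eWAT. The whole lists held 48308, 63214 and 60974 sites in the same order of depots. When every list was cut to its 48308 strongest sites, the windows held 40 sites in BAT, 29 in iWAT and 35 in eWAT. Every window still had sites in all 3 full lists, and the lists also differed in which sites they held and how strong these were. The strength of a site is the normalized tag count of the deposited lists, which is relative to the site's own library. It is also given as a percentile in its own list, where 100 is the highest count. The 25% of sites with the highest counts are called strong. Sites of different depots that overlapped or touched were joined into 1 region, which gave 70 regions at the windows. Where a list holds no site its tag count is unknown, so an unlisted place may still be open. A site that is weaker in each cell and one that is open in fewer cells cannot be told apart.

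**Figure D1:**
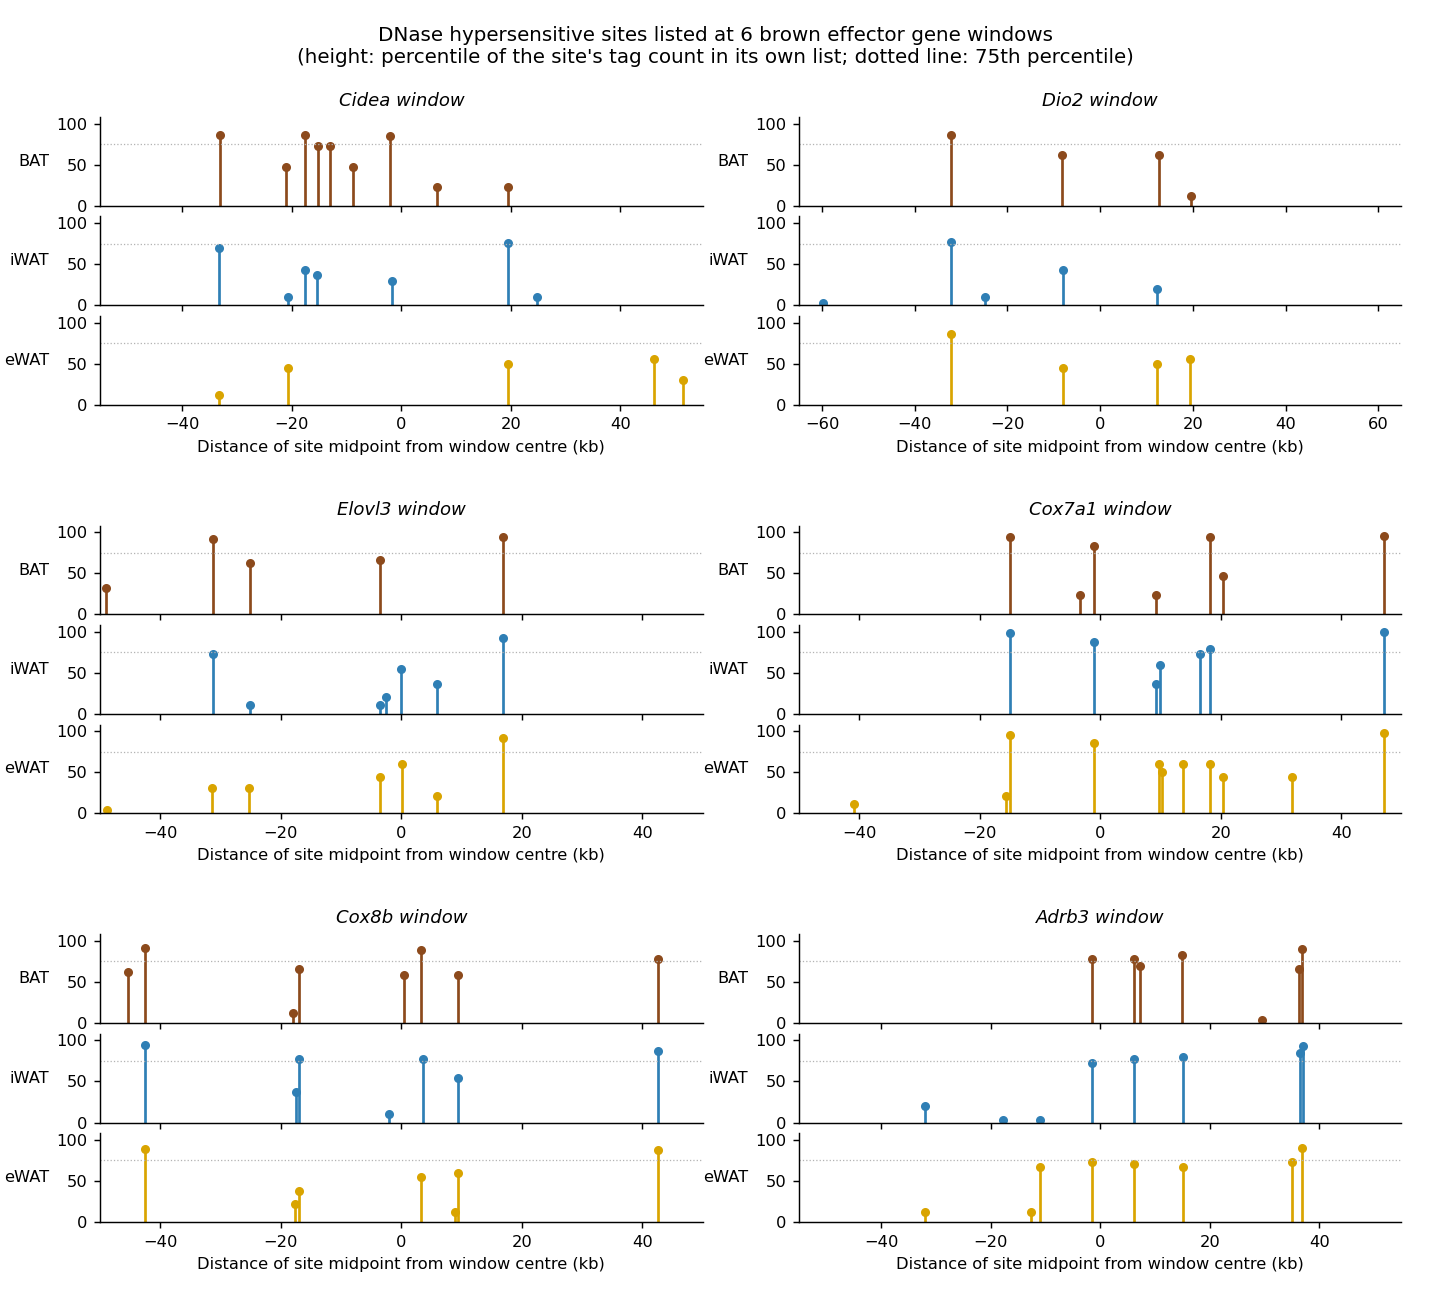
Open sites listed in the 6 gene windows, with the distance from the window's centre in kb on the horizontal axis and the percentile of the site's tag count in its own list on the vertical axis, for BAT, iWAT and eWAT from top to bottom of each panel. The Cidea panel has 9 BAT, 7 iWAT and 5 eWAT sites. In every window but Cidea the strongest site stands at the same place in all 3 depots.

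A larger share of the sites at these genes was strong in BAT than in eWAT. In BAT 17 of 40 sites were strong (whole list 26.2%, because of ties), in iWAT 15 of 41 (26.1%) and in eWAT 8 of 42 (25.6%). The median site of the 6 windows stood at the 67.7th percentile in BAT, the 54.6th in iWAT and the 52.6th in eWAT. Ranked instead by the authors' fold of a site's tag density over its surroundings, the medians were 44.6, 43.8 and 35.3. In every depot the median site was thus above the middle of its list by tag count and below it by local fold. By local fold BAT and iWAT were nearly level.

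Of the 70 regions, 19 (27.1%, exact 95% interval 17.2 to 39.1) were listed in all 3 depots. Such common regions were 19 of the 40 regions with a BAT site (51.8% over the whole list), of 41 with an iWAT site (39.6%) and of 42 with an eWAT site (41%). Regions listed in BAT alone numbered 15 of 40 (37.5%, interval 22.7 to 54.2), where 23.5% of all BAT regions were of this kind. In iWAT alone there were 10 of 41 (24.4%, interval 12.4 to 40.3; whole list 32.1%), and in eWAT alone 11 of 42 (26.2%, interval 13.9 to 42.0; whole list 32%). Each interval held the share of its whole list, and the intervals cover counting error only. Of the 15 BAT sites, 6 lay within 200 bp of a white site that they did not overlap. Such near neighbours were also frequent over the whole BAT list. There 11332 of 48301 regions were in BAT alone, and 7741 of 48028 with sites within 200 bp joined. With sites within 200 bp joined, 9 of 40 BAT regions were in BAT alone (22.5%, interval 10.8 to 38.5; whole list 16.1%), 7 of 41 in iWAT alone (whole list 24.2%) and 9 of 41 in eWAT alone (whole list 24.7%).

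Cidea, whose protein coats lipid droplets in brown fat, had the largest summed difference between depots of the 6 windows. The BAT list held 9 sites there, the iWAT list 7 and the eWAT list 5. Their normalized tag counts summed to 145.5 in BAT (mean 16.2 per site, 1998 bp covered), 92.5 in iWAT (mean 13.2, 1554 bp) and 42.8 in eWAT (mean 8.56, 1100 bp). The number of sites was thus highest in BAT and lowest in eWAT. In its own list the median Cidea site stood at the 72.4th percentile in BAT, the 36.7th in iWAT and the 44.4th in eWAT.

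The scaling totals of the libraries are not given in the sources used here, so ratios of sums are read relative to the median ratio of all windows of 100 kb with a site in both lists. On this scale the log2 ratio of the Cidea sums was 1.17 for BAT over iWAT (exact 95% counting interval 0.80 to 1.55), higher than in 95.7% of 14583 windows. For BAT over eWAT it was 1.65 (interval 1.25 to 2.07), higher than in 98.5% of 14513 windows. Both comparisons use the same BAT library. Windows of 100 kb with a site held a median of 2 sites in BAT, 3 in iWAT and 3 in eWAT, fewer than the Cidea window. Ratios of most windows thus rest on fewer sites, and the ranks do not compare like with like. The Cidea sums count an unlisted site as 0, although its tag count is unknown. When only regions common to all depots were summed, the ratios of the Cidea window were -0.13 over iWAT and -0.069 over eWAT. That setting was chosen after seeing the data, and its Cidea sum rests on 2 regions with 14 and 11 tags in BAT. With all listed sites, Cidea was the 1 window of 6 whose sum passed 2-fold in BAT over iWAT, where 6.3% of all windows passed, and the 1 of 6 in BAT over eWAT, where 6.45% passed. None of the 6 was lower in BAT past 2-fold (all windows 9.59% against iWAT and 9.83% against eWAT). The median subtracted was -0.515 over iWAT and 0.111 over eWAT. With no centring the Cidea ratio was 0.65 over iWAT, below 2-fold, and 1.77 over eWAT. By number of sites it was 0.63 and 0.97, also below 2-fold. Over iWAT Dio2 passed with lists of equal length (1.20) and the top 50% of each list (1.74). Over eWAT Elovl3 passed with the top 50% (1.32).

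The longest stretch of the Cidea window without an eWAT site, chosen for that reason, ran for 40.0 kb between eWAT sites that end at 67484332 and start at 67524346. Within it the BAT list held 6 sites and the iWAT list 3. The BAT sites of that stretch stood between the 23.4th and the 86.0th percentile. In the other windows the longest stretch between neighbouring eWAT sites ran from 19.8 kb at Adrb3 to 33.0 kb at Cox8b. Stretches between an outermost site and the window's edge are left out of this range. At Dio2 such a stretch, from the last eWAT site's end at 91984445 to the window's end at 92030000, was longer than the Cidea stretch. The BAT list held 1 site within the Adrb3 stretch and 0 within the Cox8b stretch. Stretches of this kind were not counted over the whole lists, so these counts have no background.

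The 3 highest BAT regions of the Cidea window had white counterparts with lower tag counts or none. Choosing regions by a high BAT count favours this direction. Their local fold in BAT was close to that of iWAT or below it. At 67487305 to 67487558 the normalized tag count was 23.1 in BAT (86.0th percentile) and 12.8 in iWAT (43.5th), and eWAT listed no site. The centred log2 ratio of BAT over iWAT there was 1.17 (counting interval 0.16 to 2.24). By local fold it was 0.18, below 2-fold, with the site 6.47 times above its surroundings in BAT and 6.22 times in iWAT. At 67502786 to 67503008 BAT held 22.3 (84.5th percentile), and the nearest white site, in iWAT and 88 bp away, held 10.8 (29.0th). With these joined, the centred log2 ratio of BAT over iWAT was 1.36 (interval 0.29 to 2.52), while the local fold was 11.8 at both the BAT and the iWAT site. At 67471867 to 67472089 BAT held 23.1 (86.0th percentile), and a region 26 bp away, the strongest one listed in white fat alone, held 18.7 in iWAT (69.8th) and 6.54 in eWAT (11.8th). With these joined, the log2 ratio was 0.62 over iWAT (interval -0.28 to 1.55) and 1.55 over eWAT (interval 0.49 to 2.71). The local fold there was 12.5 in BAT, 14.2 in iWAT and 6.99 in eWAT.

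Other Cidea sites listed in BAT alone were 67489753 to 67489975 and 67491892 to 67492114, both with 17.1 normalized tags (72.4th percentile), 67496134 to 67496356 with 12.0 (47.1st) and 67511326 to 67511548 with 9.42 (23.4th). The nearest white sites, all in iWAT, lay 47, 2186, 6428 and 8008 bp away. In contrast, both common regions of the window stood below the middle of the BAT list. At 67524279 to 67524622 the normalized tag count was 9.42 in BAT (23.4th percentile), 20.7 in iWAT (75.1st) and 9.52 in eWAT (50.1st), and BAT was the lowest by percentile. At 67483892 to 67484424 it was 12.0 in BAT (47.1st), 8.87 in iWAT (10.3rd) and 8.92 in eWAT (44.4th). By local fold the median Cidea site of BAT stood at the 19.3rd percentile of its list, against the 72.4th by tag count.

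At Elovl3, the fatty acid elongase, BAT listed fewer sites than the white depots, 5 against 7 in each, and no region was listed in BAT alone. The 4 common regions of the window nevertheless all had their highest percentile in BAT.

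The widest spread at Elovl3 was at 46178534 to 46178841 on chromosome 19. The normalized tag count there was 28.3 in BAT, 19.7 in iWAT and 7.73 in eWAT, which put the region at the 91.8th, 72.6th and 30.4th percentiles in that order. The centred log2 ratio was 0.84 over iWAT (interval -0.01 to 1.71) and 1.59 over eWAT (interval 0.63 to 2.64). By the authors' local fold the site stood 20.7 times above its surroundings in BAT, 15.7 times in iWAT and 5.45 times in eWAT, the same order.

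Weaker regions at Elovl3 had the same direction with wide intervals. At 46206343 to 46206621 the count was 15.4 in BAT, 8.87 in iWAT and 8.92 in eWAT, with a log2 ratio of 1.11 over iWAT (interval -0.12 to 2.45) and 0.51 over eWAT (interval -0.56 to 1.60). At 46184661 to 46185032 it was 14.6 in BAT, 8.87 in iWAT and 7.73 in eWAT, with ratios of 1.03 (interval -0.22 to 2.38) and 0.64 (interval -0.49 to 1.80). By local fold the ratios over iWAT were 0.75 and 0.47, below 2-fold. The strongest region, at 46226734 to 46226982, was nearly level by rank, with 30.8 in BAT, 33.5 in iWAT and 20.2 in eWAT at the 93.7th, 92.4th and 91.5th percentiles. White fat in turn held regions that BAT did not list, the highest at 46209902 to 46210145 with 14.8 in iWAT (54.6th percentile) and 10.7 in eWAT (59.7th). The summed window ratio was 0.40 over iWAT (interval 0.01 to 0.79) and 0.43 over eWAT (interval 0.04 to 0.81), below 2-fold. The direction over iWAT turned with no centring (-0.11), and by number of sites the ratios were -0.22 over iWAT and -0.36 over eWAT.

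**Figure D2:**
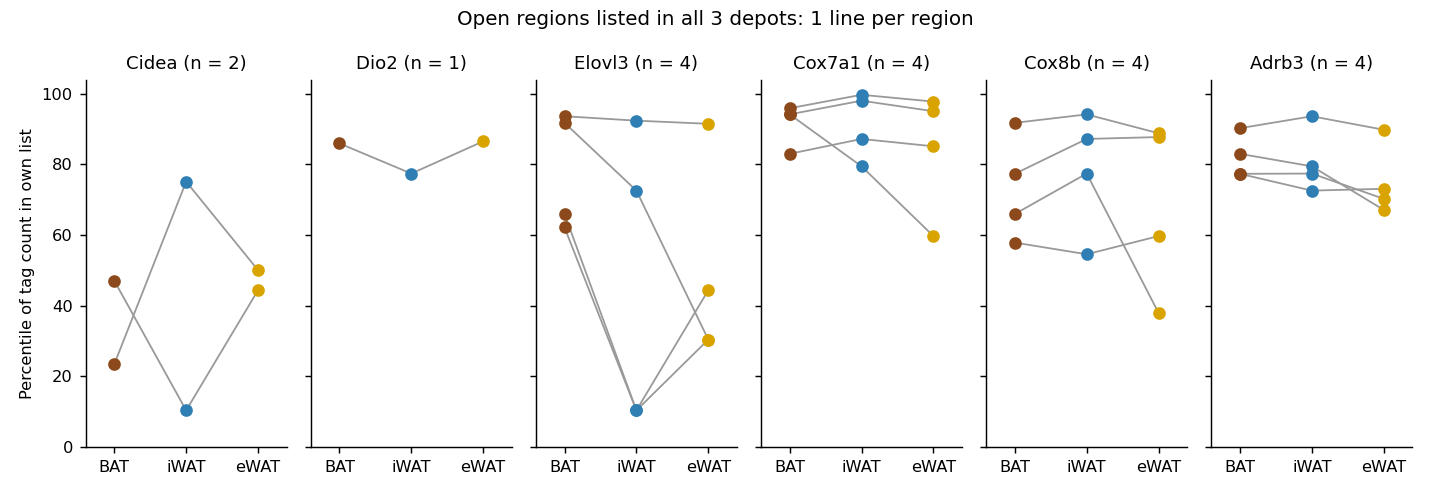
Percentile of the tag count in its own list (vertical axis) in BAT, iWAT and eWAT for the 19 regions listed in all 3 depots, 1 panel per gene window and 1 line per region. All 4 Elovl3 lines start highest in BAT, 3 of the 4 Cox7a1 lines peak in iWAT, and the other ends at 59.7 in eWAT.

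Cox7a1, an oxidase subunit form, had strong open regions in every depot. Of its sites 4 of 7 were strong in BAT, 4 of 7 in iWAT and 3 of 11 in eWAT. Its strongest region, at 31017002 to 31017253 near the edge of the window, held 35.1 normalized tags in BAT, 73.9 in iWAT and 29.1 in eWAT, at the 95.9th, 99.7th and 97.8th percentiles. BAT was lower than iWAT there, with a log2 ratio of -0.76 (interval -1.35 to -0.19), and level with eWAT at -0.01 (interval -0.64 to 0.62). At 30954859 to 30955101 the counts were 31.7 in BAT, 49.3 in iWAT and 23.8 in eWAT, at the 94.2nd, 98.1st and 95.1st percentiles, and both ratios had intervals that held 0.

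A single Cox7a1 region was stronger in BAT than in eWAT past 2-fold. At 30988117 to 30988352 the normalized tag count was 31.7 in BAT (94.2nd percentile), 22.7 in iWAT (79.5th) and 10.7 in eWAT (59.7th). The centred log2 ratio was 0.80 over iWAT (interval 0.01 to 1.62) and 1.29 over eWAT (interval 0.44 to 2.19). By local fold the site stood 10.8 times above its surroundings in BAT, 5.86 times in iWAT and 5.52 times in eWAT, and the ratio over eWAT by local fold was 0.69, below 2-fold. The highest region listed in white fat alone, at 30986540 to 30986762, was an iWAT site with 19.7 normalized tags (72.6th percentile). The eWAT list held 5 regions of its own in this window, BAT 1 and iWAT 1. The summed ratio of the Cox7a1 window was -0.04 over iWAT (interval -0.33 to 0.26) and -0.03 over eWAT (interval -0.32 to 0.25), so that the window as a whole did not lean towards BAT.

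Cox8b, the other oxidase subunit form, had 1 region of the same kind. At 148088161 to 148088386 on chromosome 7 the normalized tag count was 24.8 in BAT (88.4th percentile) and 10.1 in eWAT (55.2nd), with a log2 ratio of 1.02 (interval 0.11 to 1.97). By local fold that ratio was 0.61, below 2-fold. An iWAT site with 21.7 normalized tags (77.4th percentile), the highest in the window listed in white fat alone, lay 66 bp away. Joined with it, the ratio of BAT over iWAT was 0.51 (interval -0.34 to 1.38), an interval that held 0.

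Both of the other leading Cox8b regions were similar in all depots. The one at 148042284 to 148042559 held 28.3 in BAT, 36.4 in iWAT and 18.4 in eWAT, at the 91.8th, 94.2nd and 88.8th percentiles. The one at 148127465 to 148127757 held 18.8 in BAT, 27.6 in iWAT and 17.8 in eWAT, at the 77.4th, 87.2nd and 87.8th percentiles. BAT had the lowest percentile at the second of these. Across the window the summed ratio was 0.46 over iWAT (interval 0.13 to 0.80) and 0.69 over eWAT (interval 0.35 to 1.03). The direction over iWAT turned with no centring (-0.051) and when only common regions were summed (-0.067).

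Dio2, the deiodinase, had the fewest sites, with 4 in BAT, 5 in iWAT and 4 in eWAT over 130 kb. A single region was common to all depots, at 91932712 to 91933006 on chromosome 12, with 23.1 normalized tags in BAT, 21.7 in iWAT and 17.2 in eWAT. It stood at the 86.0th, 77.4th and 86.5th percentiles, and both ratios had intervals that held 0 (0.40 over iWAT, -0.46 to 1.29, and 0.15 over eWAT, -0.67 to 0.95). It was a sharp site in every depot, 22.8 times above its surroundings in BAT, 32.3 times in iWAT and 26.3 times in eWAT.

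The other 3 Dio2 sites of BAT overlapped no white site, yet each had one within 200 bp. The BAT site at 91956643 to 91956865 held 14.6 normalized tags (62.2nd percentile), and the white region 64 bp away held 12.8 in iWAT (43.5th) and 8.92 in eWAT (44.4th). The BAT site at 91977550 to 91977772 also held 14.6, and the white region 138 bp away held 9.85 in iWAT (20.2nd) and 9.52 in eWAT (50.1st). Joined in this way, the 4 ratios of these regions lay between 0.34 and 0.88, all with intervals that held 0. The BAT site at 91984524 to 91984746 was weak, with 8.57 (12.5th percentile). The eWAT site 79 bp away held 10.1 (55.2nd), the highest percentile of the Dio2 sites listed in white fat alone. Joined with it, the ratio of BAT over eWAT was -0.51 (interval -1.80 to 0.70), an interval that held 0.

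At Adrb3, the receptor gene, no shared region passed 2-fold against either white depot. The leading region, at 28371810 to 28372068 on chromosome 8, held 26.6 normalized tags in BAT, 35.5 in iWAT and 19.0 in eWAT, at the 90.3rd, 93.7th and 89.8th percentiles. At 28349920 to 28350295 the counts were 21.4 in BAT, 22.7 in iWAT and 11.9 in eWAT, at the 83.0th, 79.5th and 67.1st percentiles. The regions at 28333379 to 28333690 and 28340994 to 28341307 both held 18.8 in BAT, with 19.7 and 21.7 in iWAT and 13.1 and 12.5 in eWAT. The ratios of all 4 common regions lay between -0.10 and 0.57, and every interval held 0. The summed ratio was 0.24 over iWAT (interval -0.09 to 0.58) and 0.29 over eWAT (interval -0.04 to 0.63). The highest region in white fat alone was an eWAT site at 28369977 to 28370197 with 13.1 normalized tags (73.1st percentile).

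**Figure D3:**
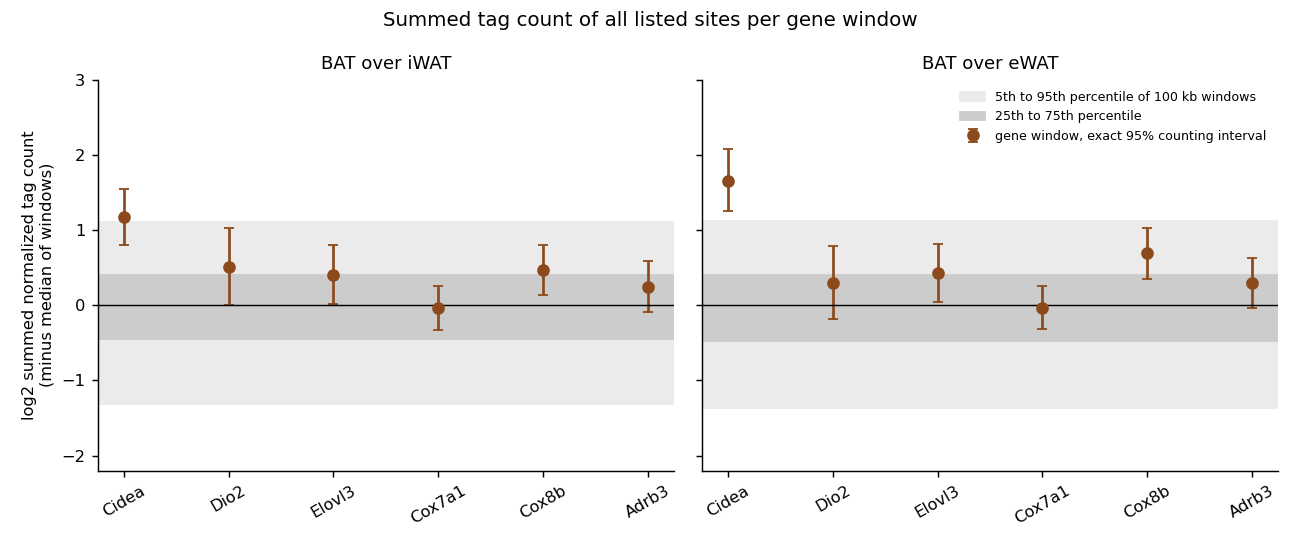
Summed normalized tag count of all listed sites per gene window, as the log2 ratio of BAT over iWAT (left) and BAT over eWAT (right) minus the median of all 100 kb windows, with exact 95% counting intervals as bars. Grey bands hold the middle 50% and the 5th to 95th percentiles of all windows, and only the Cidea points, at 1.17 and 1.65, stand above the 95th percentile.

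The ratios of the shared regions of the 6 windows are relative to the median of all regions shared by the same pair of lists. That median was -0.31 before centring for BAT over iWAT and 0.28 for BAT over eWAT. Against eWAT 19 of 22 regions were above the median, where 50% of all 30287 shared regions were, most with intervals that held 0, and the median ratio of the 22 was 0.28. Against iWAT 12 of 22 were above it (49.8% of all 31691), with a median of 0.15. With sites within 200 bp joined, 22 of 26 were above the median against eWAT and 18 of 28 against iWAT. Both comparisons rest on the same BAT library, and the difference between the counts was not tested.

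Few regions passed 2-fold. In BAT over eWAT 3 of 22 were higher in BAT (all shared regions 2.59%) and 0 lower (2.31%). In BAT over iWAT 3 of 22 were higher (2.82%) and 0 lower (2.8%), but with no centring 0 were higher and 2 lower. By local fold 1 was higher and 1 lower in each comparison. With lists of equal length 1 was higher than in iWAT, where the Elovl3 iWAT sites of that call fell out of the cut list. With sites within 200 bp joined, 4 of 28 were higher than in iWAT (2.77% of all) and 0 lower (2.82%). Joined in the same way, 4 of 26 were higher than in eWAT (2.58%) and 0 lower (2.39%). No common region passed 2-fold against both white depots (0 of 19, where 0.848% of all common regions did). Counting intervals of the 3 regions above eWAT, at Elovl3, Cox7a1 and Cox8b, lay above 0. Of the 3 above iWAT, only the Cidea region had such an interval.

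By rank, BAT stood over 25 percentile points above eWAT at 6 of 22 shared regions (8.47% of all) and as far below it at 1 (20.4%). Against iWAT the counts were 4 above (8.46%) and 1 below (19.2%). Over all shared regions the median difference in percentile, BAT minus white, was -4.29 points against eWAT and -4.11 against iWAT, and BAT is the shortest list. Among the 19 common regions the percentile was highest in BAT at 8 (23.7% of all common regions), in iWAT at 8 (37.3%) and in eWAT at 3 (39%).

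**Figure D4:**
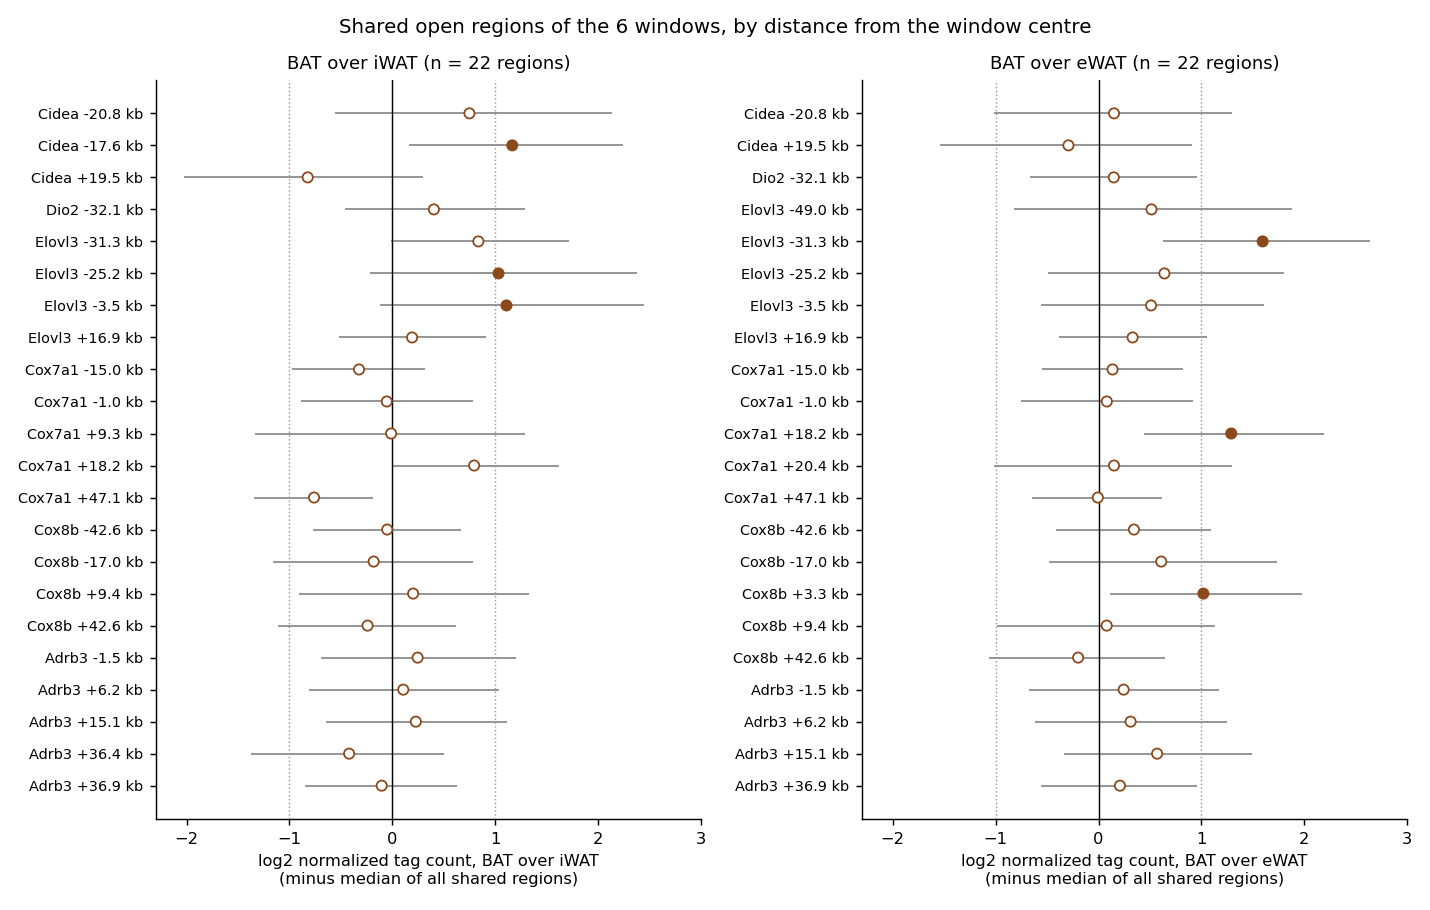
Log2 ratio of the normalized tag count at each shared region, BAT over iWAT (left) and BAT over eWAT (right), minus the median of all shared regions, with exact 95% counting intervals as lines; filled points pass 2-fold (dotted lines) and labels give the gene window and the distance from its centre. On the right the points at Elovl3 (1.59), Cox7a1 (1.29) and Cox8b (1.02) pass 2-fold, and none lies below -1 in either panel.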

How the data were processed

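Per the submitters' processing notes STAR, HOMER and the build mm9 were used, with no roles, versions or settings given. The authors deposited 1 list of sites per library with HOMER findPeaks column names. The deposited normalized tag count is a signal, scaled to a total the files do not state. The deposited peak score is in whole numbers, and the deposited fold is the ratio of a site's tag density to its surroundings, at least 4 in each list. The sources used here do not state whether a library pooled cultures.

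Normalized tag counts were divided by the step that 1 tag is worth (0.857 in BAT, 0.985 in iWAT and 0.595 in eWAT). With a tolerance of 0.05 (0.005 below 10), 99.5%, 99.9% and 98.1% of values were whole multiples. The median site held 14 tags in BAT, 14 in iWAT and 16 in eWAT. Whole tags gave exact binomial (Clopper-Pearson) 95% intervals of ratios, which cover counting error only and not differences between cultures.

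Sites that overlapped or touched were joined, and a region with several sites of 1 list took the highest. Regions named with values were, per window, the 3 highest in BAT with ties, strong regions in BAT alone, shared regions past 2-fold against both white depots, and the highest percentile in white fat alone. Other regions named were chosen after their values were seen. The genes, windows and rules were chosen with earlier results of these data known. An mm9 genome and gene annotation were not used here, so site sequences and other brown fat genes were not analysed here. The joining and ratio code was tested on simulated data. Python 3.11.15, numpy 2.4.6, pandas 2.3.3, scipy 1.17.1 and matplotlib 3.10.9 were used.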

Additional observations from a re-analysis of the deposited data

How the results depend on the processing

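No paired analysis was possible because each depot has 1 library. With the top 50% of each list the windows held 22 sites in iWAT and 22 in eWAT (29 in BAT). Regions in exactly 2 depots then numbered 6, in iWAT alone 4 and in eWAT alone 6. With lists of equal length 6 were in iWAT alone. Regions in BAT alone numbered 9 with sites within 200 bp joined and 8 within 500 bp, where 7 were in eWAT alone.

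Regions past the call in BAT over iWAT numbered 0 higher and 2 lower with no centring, 1 and 1 by local fold, 6 and 2 at 1.5-fold, and 1 higher with lists of equal length, and 1 was lower by percentile. In BAT over eWAT they numbered 6 and 1 by percentile, 1 and 1 by local fold, and 5 higher at 1.5-fold.

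Summed log2 ratios of BAT over iWAT, in the order Cidea, Dio2, Elovl3 and Cox7a1, were 1.85, 1.74, 0.86 and -0.33 with the top 50%, 0.65, -0.0054, -0.11 and -0.55 with no centring, and 0.63, -0.059, -0.22 and 0.26 by number of sites. With no centring Cox8b had -0.051 and Adrb3 -0.27, and with lists of equal length Dio2 had 1.20. Over eWAT they were 3.14 for Cidea and 1.32 for Elovl3 with the top 50%. By number of sites they were 0.97 for Cidea, -0.36 for Elovl3, -0.53 for Cox7a1, 0.32 for Cox8b and -0.067 for Adrb3. Summed over common regions, a setting chosen after seeing the data, Cidea had -0.13 over iWAT and -0.069 over eWAT, and the sum then rests on 2 regions. Cox8b had -0.067 over iWAT and 0.18 over eWAT, and Cox7a1 0.29 over eWAT. Without the highest site of each list, also chosen after seeing the data, Cidea had 1.28 and 1.79. Joining sites within 500 bp was likewise added later. The cause of these shifts was not tested, apart from what each setting leaves out.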
